A study of Mus musculus with 12 samples.

Results

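The genes described are the membrane transporters on a mouse array: solute carriers (symbols starting with Slc and a digit), ABC transporters (Abc, a letter and a digit) and subunits of the sodium pump (Atp1a, Atp1b), of the calcium pumps (Atp2a, Atp2b) and of the proton pump of vesicles (Atp6). The rule uses the gene symbol alone. It found 103 spots of 5030, each for a different gene, out of 4605 distinct named genes. Total RNA of 2 cell lines was hybridised to 12 one-colour arrays, 3 for each of 4 groups. 2T3 is an osteoblast line from a mouse in which the BMP-2 promoter drives the SV40 T antigen, and its groups are called C0 and low. MLO-Y4 is an osteocyte line from a mouse in which the osteocalcin promoter drives T antigen, and its groups are called high and low. Per the labels, sparse osteoblasts were set against confluent ones, and osteocytes with gap junctions against osteocytes lacking them. C0 and high were read here as the dense states only because the other group of each line is called low. All 4 groups are of lines from mice carrying T antigen. Each cell type is represented by 1 line, so a difference between the lines cannot be told apart from a difference between osteoblast and osteocyte. The labels number each group's arrays from 1 to 3 without saying whether a number is a separate culture, so p-values rest on array-to-array spread that may be only technical.

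Solute carriers move ions, nutrients and metabolites along or against their gradients, often coupled to sodium or protons. ABC transporters and P-type pumps spend ATP to do so, and the sodium pump maintains the gradient that many carriers draw on. In bone, phosphate and calcium transport supply the mineral, vesicular proton pumps acidify compartments, and amino acid carriers feed collagen synthesis.

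Values are spot intensities after quantile normalization, in arbitrary units, and group means are means of log2 values converted back to units. They compare arrays for 1 gene and not genes with each other. A spot was taken as measured on an array when it lay above that array's detection limit, the size of the lowest value on it, and values marked as below the limit have no order. By this rule 20 of the 103 transporter genes (19.4%) were measured on all 12 arrays, against 24.9% of all spots. The 20 include the glutamine carrier Slc1a5, the phosphate carrier Slc20a1, the amino acid carrier heavy chain Slc3a2, the calcium pumps Atp2a1 and Atp2a2 and the vesicular proton pump subunit Atp6v1a. Another 79 were measured on some arrays only. Abca4, Abcg1, Slc22a5 and Slc32a1 were measured on none and carry no comparison. Between 37.9% and 74.8% of all spots were above the limit on a single array, and total intensity per array ran from 212491 to 1680311. The dimmest array was 2T3 low number 3, the next being MLO-Y4 low number 2 at 630205.

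The array numbered 1 stood apart in each group. Its rank correlation with the others of its group was 0.664 to 0.73, against 0.835 to 0.881 between numbers 2 and 3, and on the MLO-Y4 arrays numbered 1 only 38.1% and 37.9% of spots were above the limit. Same-numbered arrays of 2T3 C0, MLO-Y4 low and MLO-Y4 high also deviated together, while those of 2T3 low did not follow them. Results are therefore given without the 4 arrays numbered 1 as well, and with the array number as a block over the first 3 groups where that changes a call. The dim array 2T3 low number 3 remains in the fits without the arrays numbered 1. The 2T3 and MLO-Y4 labels were set beside marker lists, which were chosen with earlier results of these data known and are no independent check. Of 6 osteocyte markers, 5 were higher in MLO-Y4, where 5.83% of all spots were. The summed level of the 6 was 706 to 1643 units in 2T3 and 5735 to 8283 in MLO-Y4, while Phex was measured on 0 of 12 arrays. Of 7 osteoblast markers, 0 were called higher and 1, Msx2, was called lower in MLO-Y4 (3.48% of all spots were lower). Their median log2 difference was -1.13, but Alpl went the other way, at 63.1 units in 2T3 and 266 in MLO-Y4 (log2 2.08, limma adjusted p = 0.111). The summed levels overlapped, at 1900 to 3644 units in 2T3 and 696 to 3096 in MLO-Y4.

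Across both densities, MLO-Y4 differed from 2T3 in 6 of the 103 transporter genes (5.83%), where 9.3% of all spots passed the same test (limma with Benjamini-Hochberg adjustment over all 5030 spots, adjusted p below 0.05). The phosphate importer Slc20a1 and the drug and glutathione-conjugate exporter Abcc1 were higher in MLO-Y4, and they were the 2 called upward (5.83% of all spots were). The calcium pump Atp2a1, the potassium-chloride cotransporter Slc12a7, the zinc carrier Slc30a4 and the dopamine carrier Slc6a3 were lower (3.48% of all spots were). The transporters thus differed no more often than the array as a whole, and their median log2 difference was -0.0062 against -0.032 for all spots. At an unadjusted p below 0.05 the count was 20 members (19.4%) against 21.1% of all spots. The split moved with the scaling: equal medians called 6 members higher and 1 lower (all spots 414 and 94), and detected-spot scaling 2 and 6 (240 and 308), against 293 and 175 spots here. Of the 6, only Slc20a1, Abcc1 and Slc12a7 passed under quantile, equal-median and detected-spot scaling alike.

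**Figure D1:**
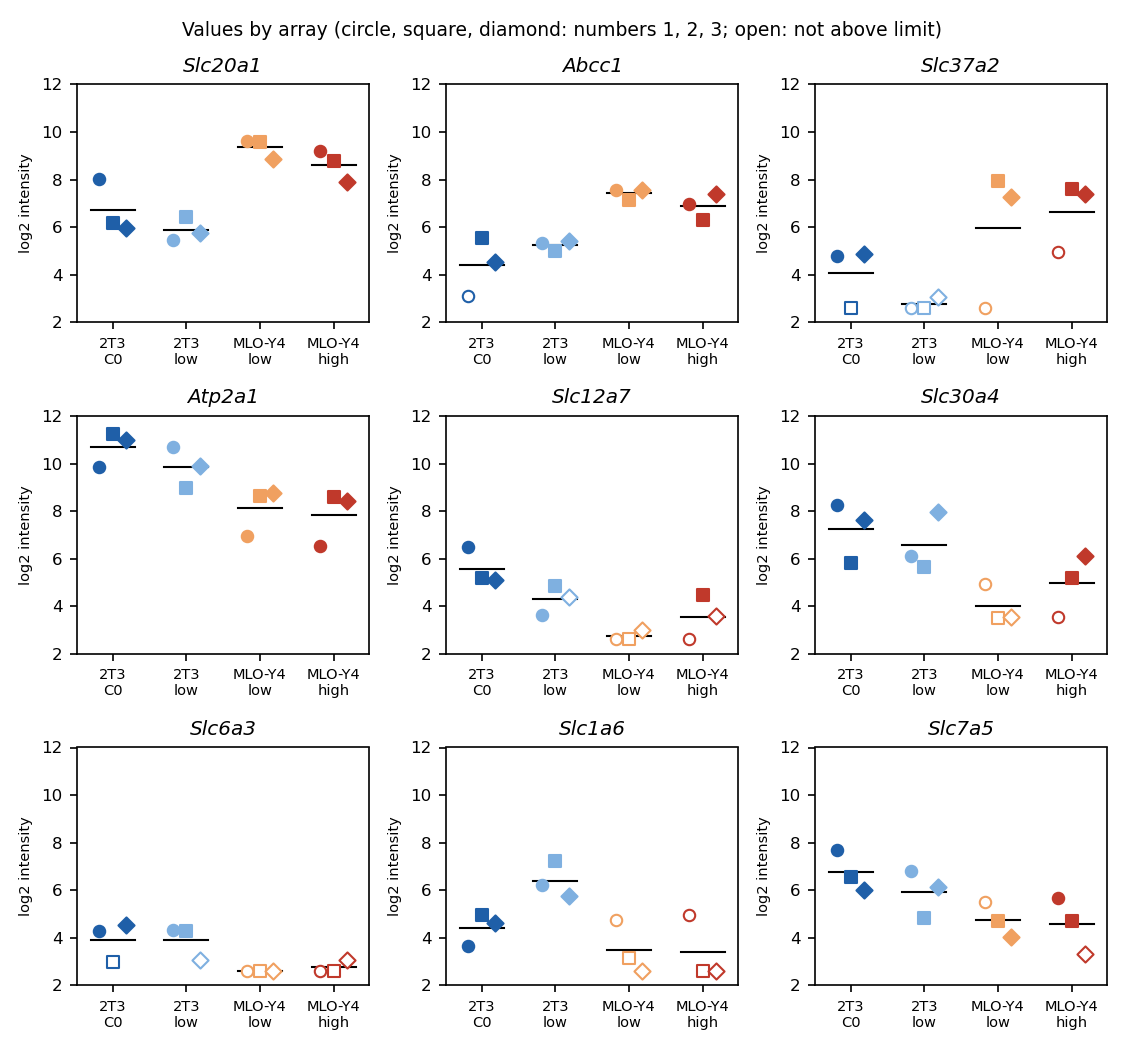
Log2 of normalized intensity on each of the 12 arrays for the 6 transporter genes that differed between MLO-Y4 and 2T3. Slc37a2, Slc1a6 and Slc7a5, which were not called, are drawn as well. Circles, squares and diamonds are the arrays numbered 1, 2 and 3, open symbols lie at or below the detection limit, and bars are means of log2 values. Converted back to units, Slc20a1 lies between 235 and 797 on MLO-Y4 arrays and between 44.4 and 258 on 2T3 arrays. Most MLO-Y4 symbols of Slc12a7, Slc30a4 and Slc6a3 are open.

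Phosphate and sulphate carriers gave the largest called difference. Slc20a1 encodes the sodium-phosphate cotransporter PiT-1, which brings inorganic phosphate into cells and is used by mineralizing ones. Its intensity was 258, 72.9 and 61.5 units on the 2T3 C0 arrays and 44.4, 86.2 and 53.3 on the 2T3 low arrays. On MLO-Y4 it was 797, 768 and 467 units at low density and 592, 443 and 235 at high density. Only C0 number 1 reached into the MLO-Y4 range. The mean was 510 units in MLO-Y4 and 78.6 in 2T3, a 6.49-fold difference (log2 2.70, SE 0.41, adjusted p = 0.00266), and 2.71 without the arrays numbered 1 (adjusted p = 0.0142). The call held in every alternative setting and in all 12 fits that left out 1 array. The other 5 carriers of this class did not pass, of which 2 are named after seeing their values. The sulphate carrier Slc26a2, needed for cartilage proteoglycans, had a log2 difference of 0.05 (SE 0.44), and the renal phosphate carrier Slc34a1 one of -0.58 (SE 1.09, adjusted p = 0.832). Slc34a1 was not measured on either MLO-Y4 array numbered 1 but read 89.0 to 210.1 units on the other 4.

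Promoters are shown from RefSeq annotation of GRCm38.p6, from 250 bases before to 50 after the annotated start, for the 3 called genes with an entry whose call was kept without the arrays numbered 1. Those of Slc30a4 and Slc6a3, whose calls were lost in that fit, are left out, and Abcc1 is named only. Of the 103 genes, 78 matched the promoter table, with 104 starts. Capitals mark matches on either strand to the AP-1 motif TGANTCA, the GC box GGGCGG, the TATA box TATAAA and the E-box CACGTG. The first of 2 Slc20a1 starts lies at chr2:129198523-129198822 on the plus strand, Atp2a1 at chr7:126463024-126463323 on the minus strand, and the first Slc12a7 start at chr13:73763410-73763709 on the plus strand.
Slc20a1: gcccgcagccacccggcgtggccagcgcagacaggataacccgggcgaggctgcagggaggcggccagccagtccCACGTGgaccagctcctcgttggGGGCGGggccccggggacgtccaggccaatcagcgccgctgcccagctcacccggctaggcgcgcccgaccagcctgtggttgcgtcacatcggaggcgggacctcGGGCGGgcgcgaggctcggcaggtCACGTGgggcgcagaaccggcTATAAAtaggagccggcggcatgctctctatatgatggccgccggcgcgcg
Atp2a1: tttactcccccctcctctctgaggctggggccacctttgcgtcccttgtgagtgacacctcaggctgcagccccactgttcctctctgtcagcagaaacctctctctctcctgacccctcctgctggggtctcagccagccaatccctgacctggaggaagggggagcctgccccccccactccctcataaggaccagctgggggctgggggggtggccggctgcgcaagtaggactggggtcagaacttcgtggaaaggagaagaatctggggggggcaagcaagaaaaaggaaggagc
Slc12a7: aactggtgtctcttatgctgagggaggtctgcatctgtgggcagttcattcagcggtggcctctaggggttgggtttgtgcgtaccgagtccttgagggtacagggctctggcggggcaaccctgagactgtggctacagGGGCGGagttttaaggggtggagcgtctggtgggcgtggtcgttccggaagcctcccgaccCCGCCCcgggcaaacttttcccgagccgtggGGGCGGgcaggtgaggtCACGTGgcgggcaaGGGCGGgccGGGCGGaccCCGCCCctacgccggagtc
The promoter of the first Slc20a1 start is 73.0% G and C, against a median of 52.7% over all promoters. It holds 2 GC boxes, 2 E-boxes and 1 match to the TATA box, which begins at base -1 and so runs across the annotated start. That of the second start, not printed, is 52.0% G and C and holds 1 GC box and no E-box or TATA box. The Slc12a7 promoter holds 6 GC boxes and 1 E-box, and that of Atp2a1 none of these motifs. Over all 32851 promoters, a GC box was found in 35.7%, an E-box in 7.15%, a TATA box in 13.6% and the AP-1 motif in 7.81%, and over the 104 transporter promoters in 53.8%, 17.3%, 13.5% and 5.77%. The matches describe letters only.

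ABC transporters export lipids, drugs and conjugates at the cost of ATP. Of 14 on the array, 12 were above the limit on at least 1 array, 1 was higher in MLO-Y4 and 0 were lower. Abcc1, also called MRP1, exports glutathione conjugates, including leukotrienes. It read 8.58 (below the limit), 46.7 and 22.8 units on 2T3 C0 arrays and 39.8, 31.8 and 42.2 on 2T3 low arrays. On MLO-Y4 it read 189, 142 and 189 units at low density and 126, 79.1 and 166 at high density. No MLO-Y4 array overlapped a 2T3 array. Such a lack of overlap, with values below the limit taken as read here and in the counts that follow, was found for 3 of the 103 members and 5.84% of all spots. The means were 143 and 28.04 units, 5.09-fold apart (log2 2.35, SE 0.39, adjusted p = 0.00417), and the difference was 1.99 without the arrays numbered 1 (adjusted p = 0.0400).

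The other drug exporters were less clear. Abcb1b, a P-glycoprotein, read 13.9 to 41.9 units on 2T3 arrays and 96.1 to 177 on the MLO-Y4 arrays numbered 1 and 2, but 29.3 and 32.1 on those numbered 3. Its log2 difference was 1.48 (SE 0.53, adjusted p = 0.130), and adjusted p = 0.0270 with the 3-group block. Abcg2, the breast cancer resistance protein, differed by 1.03 (SE 0.47, adjusted p = 0.242). The cholesterol exporter Abca1 was measured on 2 of 6 2T3 arrays and 0 of 6 for MLO-Y4, with no test passed. Abce1, a soluble ABC protein that recycles ribosomes and moves nothing across membranes, differed by -0.50 (SE 0.35, adjusted p = 0.485).

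**Figure D2:**
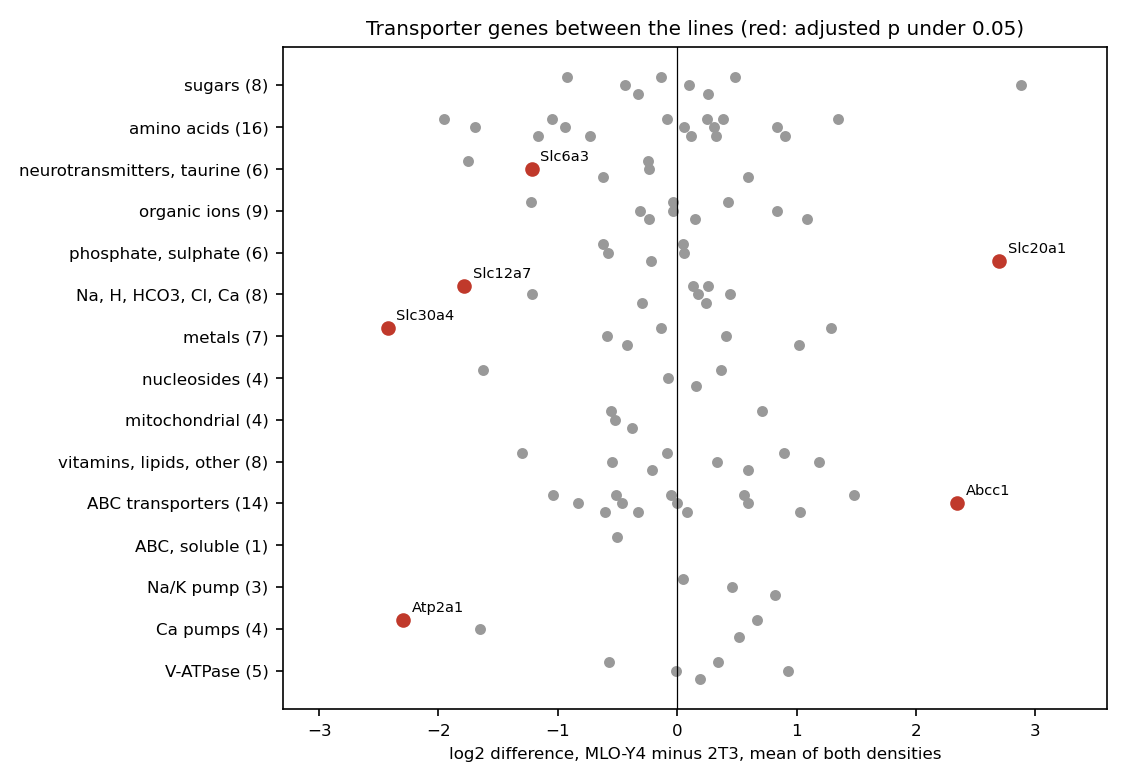
Log2 difference between MLO-Y4 and 2T3 over both densities (positive is higher in MLO-Y4) for each of the 103 genes, by transport class, with called genes marked. In most classes the genes lie on both sides of 0, and the called ones are spread over 6 classes with 1 gene each. The 4 calcium pumps run from -2.30 to 0.67.

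Calcium pumps return calcium from the cytosol to its stores or out of the cell. Of 4 measured, 1 was lower in MLO-Y4. Atp2a1, the SERCA1 pump best known from fast skeletal muscle, read 916, 2449 and 2025 units on 2T3 C0 arrays and 1652, 503 and 954 on 2T3 low arrays. On MLO-Y4 it read 122, 399 and 432 units at low density and 92.0, 386 and 341 at high density. Every 2T3 array was above every MLO-Y4 array. The means were 1238 and 252 units, 4.91-fold apart (log2 -2.30, SE 0.52, adjusted p = 0.0200), and the difference was -1.68 without the arrays numbered 1 (adjusted p = 0.0215). The call was lost under equal-median scaling (-1.46, adjusted p = 0.0554), without the 2 MLO-Y4 arrays numbered 1 (-1.67, adjusted p = 0.0514) and in 2 of 12 fits that left out 1 array, C0 number 2 (adjusted p = 0.0534) or number 3 (adjusted p = 0.0526). Its relatives had spots of their own. The widely used SERCA2 pump Atp2a2 was measured on all arrays and differed by 0.52 (SE 0.43, adjusted p = 0.571), and the SERCA3 pump Atp2a3 by -1.65 (SE 0.62, adjusted p = 0.146). With detected-spot scaling Atp2a3 was called (-2.19, adjusted p = 0.0220).

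The sodium pump and the proton pump had no called subunit. Of the 3 sodium pump beta subunits, which carry the catalytic subunit to the membrane, Atp1b1 read 7.75 to 28.3 units on 2T3 arrays and 28.3 to 61.3 on MLO-Y4 arrays. MLO-Y4 high number 1 was below its limit, so its 28.7 units cannot be ordered against 2T3, and the fitted log2 difference was 0.82 (SE 0.32, adjusted p = 0.167). Atp1b3 differed by 0.46 (SE 0.62). Of 5 subunits of the vesicular proton pump, Atp6v1a, its catalytic subunit, read 35.9 to 136 units on 2T3 and 103 to 166 on MLO-Y4. It differed by 0.93 (SE 0.30, adjusted p = 0.0886), and without the arrays numbered 1 it was called at 1.21 (adjusted p = 0.0147). The membrane-sector subunit Atp6v0d1 differed by -0.58 (SE 0.45, adjusted p = 0.552).

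Among 8 genes for transport of sodium, protons, bicarbonate, chloride and calcium, 1 was lower in MLO-Y4. They include Slc9a3r1, which matches the symbol rule but encodes a scaffold and not a carrier. Slc12a7, the potassium-chloride cotransporter KCC4, takes part in volume regulation. It read 88.9, 35.8 and 33.7 units on 2T3 C0 arrays and 12.4, 28.5 and 21.0 on 2T3 low arrays, the last below the limit. MLO-Y4 arrays read 6.08, 6.08 and 8 units at low density, all below the limit, and 6.08, 22.2 and 12 at high density, where number 2 alone was above it. With MLO-Y4 measured on 1 of 6 arrays, the fitted log2 difference was -1.78 (SE 0.39, adjusted p = 0.0174), and -1.45 without the arrays numbered 1 (adjusted p = 0.0358). The call was kept in all 12 fits leaving out 1 array, but was lost with a floor at the 40th percentile (adjusted p = 0.0603) and without the 2 MLO-Y4 arrays numbered 1 (adjusted p = 0.0635). The sodium-potassium-chloride importer Slc12a2, which works in the opposite direction, was above the limit on 1 of 12 arrays, MLO-Y4 low number 3.

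Metal carriers included 1 called gene of 7. Slc30a4, the zinc carrier ZnT4, moves zinc out of the cytosol into vesicles. It read 305, 56.2 and 195 units on 2T3 C0 arrays and 68.2, 50.3 and 246 on 2T3 low arrays. MLO-Y4 arrays read 30.4, 11.3 and 11.5 units at low density, all below the limit, and 11.8 (below it), 35.9 and 69.8 at high density. The log2 difference was -2.43 (SE 0.62, adjusted p = 0.0354), with MLO-Y4 measured on 2 of 6 arrays. It was -2.17 without the arrays numbered 1 (adjusted p = 0.142) and was lost in 8 of 12 fits leaving out 1 array, where adjusted p was 0.0542 to 0.0863: C0 numbers 1 and 3, 2T3 low 1 and 3, MLO-Y4 low 2 and 3, and MLO-Y4 high 1 and 2. The zinc exporter Slc30a1, ZnT1, differed by 1.29 (SE 0.61, adjusted p = 0.262), and by adjusted p = 0.0406 with the 3-group block.

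No iron carrier was called between the lines with all arrays. Slc11a2, the divalent metal importer DMT1, differed by -0.13 (SE 0.74, adjusted p = 0.948). The iron exporter ferroportin, Slc40a1, was above the limit on 2 of 12 arrays, both of 2T3 C0. It differed by -0.59 (adjusted p = 0.494), and by -1.13 without the arrays numbered 1 (adjusted p = 0.0262). Slc11a1, the metal carrier known from macrophage phagosomes, was chosen for mention after its values were seen, since it was measured on all 12 arrays. It read 407 to 3437 units on 2T3 and 154 to 4043 on MLO-Y4, the lowest being the arrays numbered 1 of C0, MLO-Y4 low and MLO-Y4 high. Beside this, 8 macrophage and osteoclast markers summed to 224 to 508 units on 2T3 arrays and 183 to 526 on MLO-Y4 arrays. Of the 8, 1 was higher and 1 lower in MLO-Y4 (5.83% and 3.48% of all spots were). Tyrobp was lower, at 101 units in 2T3 and 10.6 in MLO-Y4 (log2 -3.25, limma adjusted p = 0.00680). Csf1r was higher (0.99, adjusted p = 0.0247), though above the limit on only 1 2T3 array and 2 MLO-Y4 arrays. The leukocyte marker Ptprc was above the limit on 0 of 12.

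Neurotransmitter, creatine and taurine carriers included 1 called gene of 6. Slc6a3, the dopamine carrier, read 19.5, 7.75 (below the limit) and 22.8 units on 2T3 C0 arrays and 19.96, 19.2 and 8.25 (below it) on 2T3 low arrays. None of the 6 MLO-Y4 arrays, at 6.08 to 8.25 units, was above the limit. The levels were close to the limit in both lines, so no fold is given. The fitted log2 difference was -1.22 (SE 0.34, adjusted p = 0.0492), just inside the threshold, and was lost in 9 of 11 alternatives (without the arrays numbered 1, -0.98, adjusted p = 0.296) and in 10 of 12 fits that left out 1 array (all but C0 number 2 and 2T3 low number 3), where adjusted p was 0.0687 to 0.112. The noradrenaline carrier Slc6a2 differed by -1.75 (SE 0.70, adjusted p = 0.176), and by adjusted p = 0.00966 with the 3-group block. It read 16.6 to 179.9 units on 2T3 and at most 39.2 on MLO-Y4.

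Of 16 amino acid carriers, the largest class, 0 were called in either direction, though 16 were above the limit on at least 1 array. Slc1a6, a glutamate carrier known from cerebellar neurons, lay just outside the threshold. It read 12.6, 30.8 and 24.2 units on 2T3 C0 arrays and 74.8, 148 and 53.3 on 2T3 low arrays. None of the 6 MLO-Y4 arrays was above the limit, which makes MLO-Y4 at least 1.96-fold lower in the mean over both densities (log2 -1.96, SE 0.54, adjusted p = 0.0513). The 2T3 mean was 84.0 units at low density but 21.1 in C0. The dense MLO-Y4 arrays had limits of 47.8, 11.3 and 19.2 units, so dense culture alone gives no such bound. It was called in 8 of 11 alternatives, among them detected-spot scaling (adjusted p = 0.00261), the 3-group block (adjusted p = 0.0384) and the fit without the arrays numbered 1 (-2.88, adjusted p = 0.0166).

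The leucine carrier is made of the light chain Slc7a5 (LAT1) and the heavy chain Slc3a2. Slc7a5 read 203, 94.5 and 63.9 units on 2T3 C0 arrays and 112, 28.5 and 70.1 on 2T3 low arrays. On MLO-Y4 it read 45.1 (below the limit), 25.6 and 16.1 units at low density and 50.2, 25.8 and 9.92 (below it) at high density. Every dense MLO-Y4 array lay below every C0 array. The log2 difference was -1.69 (SE 0.52, adjusted p = 0.0768). Slc7a5 was called in 4 of 11 alternatives, among them the 3-group block (adjusted p = 0.0140) and detected-spot scaling (-2.36, adjusted p = 0.00595). Slc3a2, at 795 to 2394 units on 2T3 and 1157 to 2329 on MLO-Y4, differed by 0.31 (SE 0.28, adjusted p = 0.617). The cystine carrier Slc7a11, which shares that heavy chain, was close to the limit throughout and differed by -0.08 (SE 0.43).

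Among 8 sugar carriers 0 were called. Slc37a2, which exchanges sugar phosphate across the endoplasmic reticulum and is known from macrophages, had the largest fitted difference of all the members. It read 27.5, 6.08 and 28.9 units on 2T3 C0 arrays and 6.08, 6.08 and 8.25 on 2T3 low arrays, of which only the C0 arrays numbered 1 and 3 were above the limit. On MLO-Y4 it read 6.08 (below the limit), 245 and 154 units at low density and 30.8 (below it), 195 and 169 at high density. The 4 MLO-Y4 arrays numbered 2 and 3 exceeded every 2T3 array, and the 2 numbered 1 were not above their limits. The log2 difference was 2.88 (SE 0.92, adjusted p = 0.0893) with all arrays, 4.28 without the arrays numbered 1 (adjusted p = 0.0161), and adjusted p = 0.0464 with the 3-group block. The insulin-regulated glucose carrier Slc2a4 (GLUT4) differed by -0.93 (SE 0.54, adjusted p = 0.390).

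The remaining classes held no called gene: 9 carriers of monocarboxylates and organic ions, 4 of nucleosides and nucleotide sugars, 4 of mitochondria and 8 of vitamins, lipids, peptides and other solutes. The lactate carrier Slc16a1 (MCT1) was measured on all arrays and differed by 0.43 (SE 0.34, adjusted p = 0.554). The carnitine carrier Slc22a21 differed by 1.09 (SE 0.44, adjusted p = 0.181), the fatty acid carrier Slc27a1 by 1.19 (SE 0.41, adjusted p = 0.118) and the nucleoside carrier Slc29a2 by -1.63 (SE 0.79, adjusted p = 0.279). The mitochondrial aspartate-glutamate carrier Slc25a13 differed by -0.52 (SE 0.44, adjusted p = 0.580) and was measured on 0 of 6 arrays of MLO-Y4. The other genes that the naming rule took were all at an adjusted p above 0.05. Slc22a18, an organic cation carrier, differed by 0.84 and Slc5a3, the myo-inositol importer used in osmotic balance, by 0.90. The mitochondrial carrier Slc25a14 differed by 0.71, the iodide and chloride carrier Slc26a4 by -0.63, the anion exchanger Slc4a3 by 0.44 and the nucleotide carrier Slc35b1 by 0.37.

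**Figure D3:**
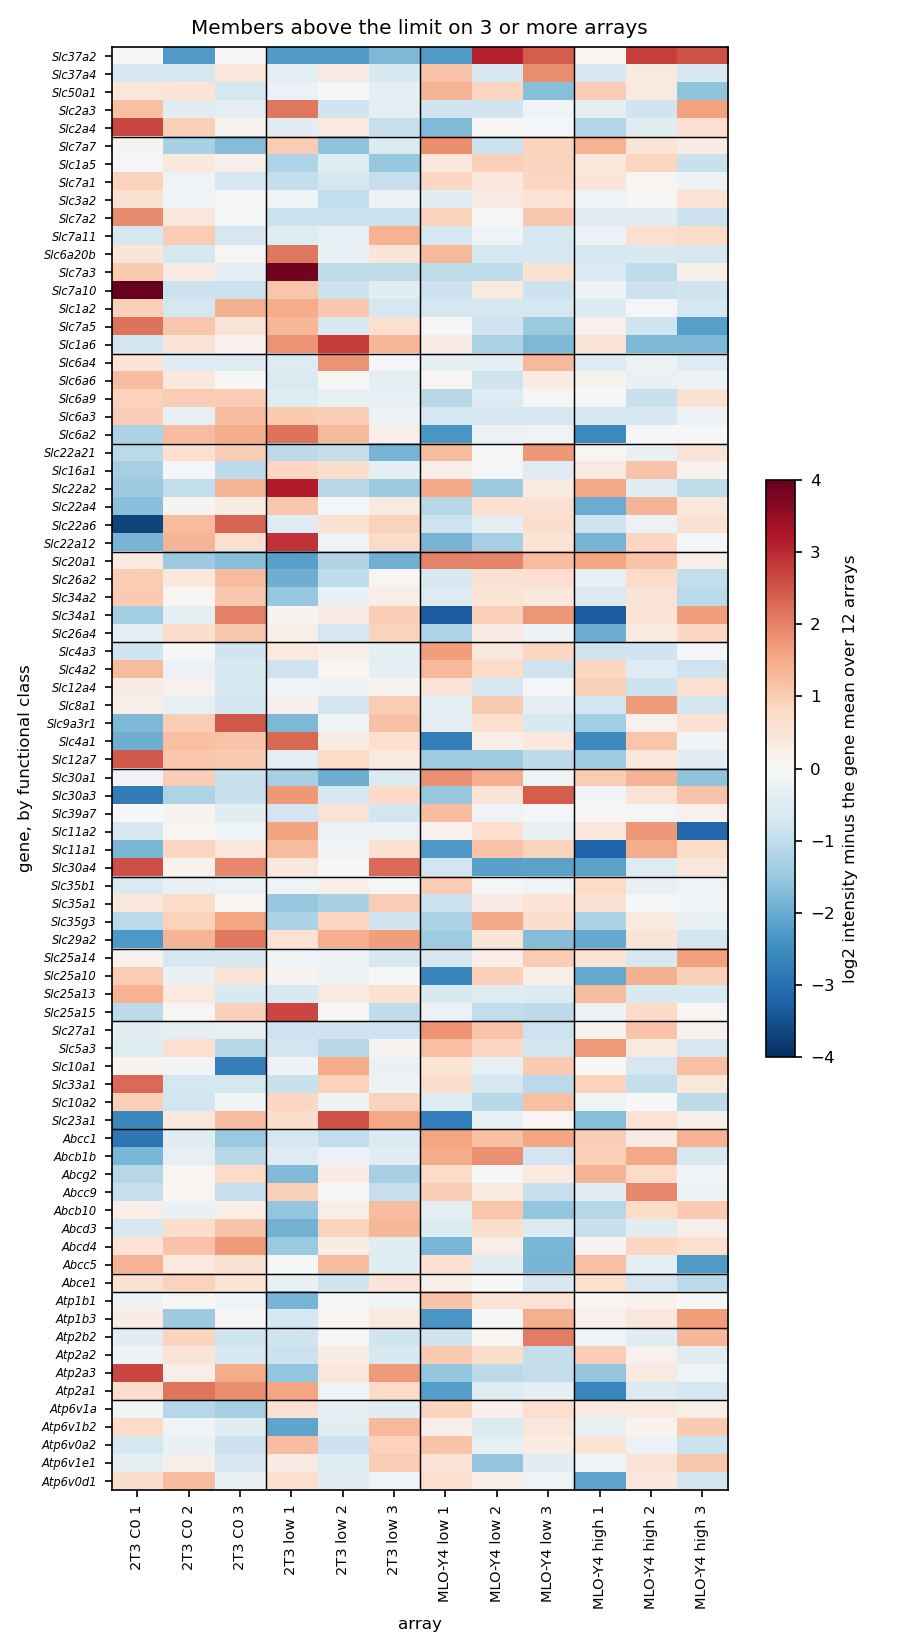
Log2 intensity minus each gene's own mean over 12 arrays, for the 80 transporter genes above the detection limit on at least 3 arrays, in columns by group and array number. The arrays numbered 1 differ from the numbers 2 and 3 of their group across many genes.

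At matched density the counts were smaller. Low-density MLO-Y4 differed from low-density 2T3 in 1 transporter gene, Slc20a1, which was higher (3.94% of all spots were called, 2.86% higher and 1.07% lower), at 11.2-fold (log2 3.48, SE 0.58, adjusted p = 0.00954). The 2 groups did not overlap for 17 of the 103 genes, against 18.9% of all spots. With the 3-group block, 7 members were called at low density (7.3% of all spots), 5 higher and 2 lower. The lower ones were the vitamin C carrier Slc23a1, which no naming rule took (-2.59, adjusted p = 0.0214), and Slc6a2 (-2.14, adjusted p = 0.0286). Beside Slc20a1 and Slc30a1 (2.31, adjusted p = 0.0266), the higher ones were the glutamine carrier Slc1a5 (1.86, adjusted p = 0.0440), the arginine carrier Slc7a1, named after its values were seen (1.58, adjusted p = 0.0286), and Slc22a21 (2.27, adjusted p = 0.0454). Slc1a5 read 65.4, 109 and 53.3 units on 2T3 low arrays and 209, 301 and 287 on MLO-Y4 low arrays, without overlap, at an adjusted p = 0.0639 without the block. Slc30a4, below the limit on all 3 MLO-Y4 low arrays, was at least 4.48-fold lower there, at an adjusted p = 0.164.

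Dense MLO-Y4 differed from 2T3 C0 in 1 transporter gene, Abcc1, which was higher (3.36% of all spots were called, 2.31% higher and 1.05% lower), at 5.67-fold (log2 2.503, SE 0.55, adjusted p = 0.0353). It was lost in 10 of 12 fits leaving out 1 array (all but C0 number 2 and MLO-Y4 high number 2), where adjusted p was 0.0518 to 0.123. It was also lost in 5 of 11 alternatives. These were the fits without the arrays numbered 1 (1.81, adjusted p = 0.183) and without the 2 MLO-Y4 arrays numbered 1 (adjusted p = 0.129). The others were detected-spot scaling (adjusted p = 0.0886), array weights (adjusted p = 0.0828) and a variance trend (adjusted p = 0.0588). With the 3-group block, 4 members were called (5.15% of all spots): Abcc1 (adjusted p = 0.0413), Slc20a1 (1.91, adjusted p = 0.0358), Atp2a1 (-2.85, adjusted p = 0.00828) and Slc7a5 (-2.19, adjusted p = 0.0408). Without it, the adjusted p of Slc20a1 was 0.127, that of Atp2a1 0.0712 and that of Slc7a5 0.173. The groups did not overlap for 14 members, against 16.6% of all spots.

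Density changed no transporter gene past the threshold in either line, and 0% of all spots were called in each comparison (limma). In 2T3, 12 of 103 members (11.7%) had an unadjusted p below 0.05, against 5.29% of all spots, and 12 did not overlap between C0 and low, against 9.05%. In MLO-Y4 3 members (2.91%) had an unadjusted p below 0.05, against 2.31%, and 4 did not overlap, against 4.51%. A test of whether the density effect differed between the lines called 0 members and 0% of spots, and 7 members (6.8%) had an unadjusted p below 0.05, against 2.88%. The carriers named next were chosen after their values were seen.

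**Figure D4:**
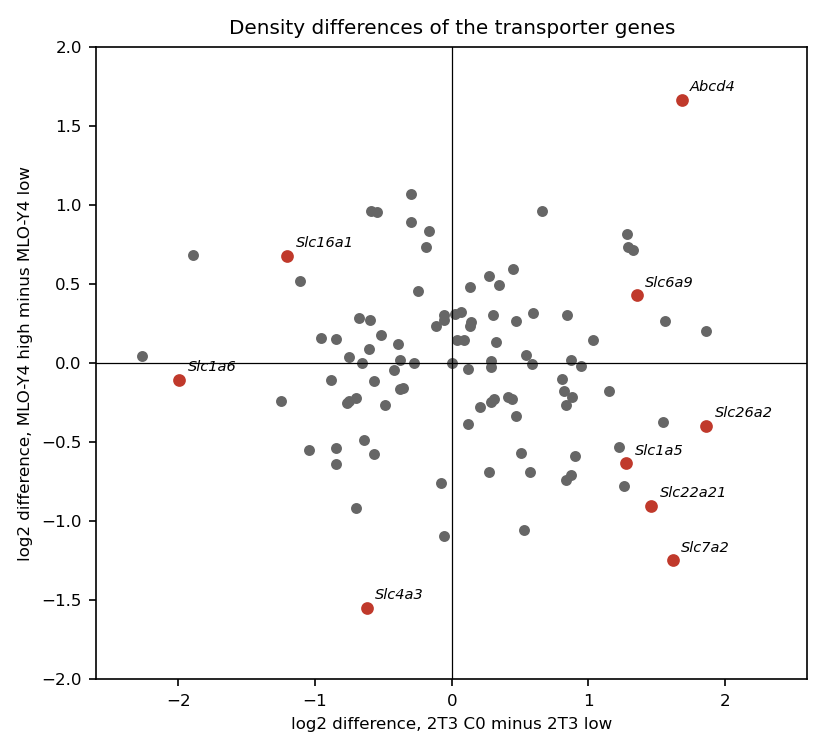
Log2 difference between dense and low culture in 2T3 (horizontal axis, C0 minus low) and in MLO-Y4 (vertical axis, high minus low) for each transporter gene, with 9 genes named in the text in red, chosen after their values were seen. None passed the threshold in either line, and Slc7a2, at 1.62 in 2T3 and -1.25 in MLO-Y4, lies toward the lower right.

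The glycine carrier Slc6a9 read 353, 379 and 377 units on the 3 C0 arrays and 132, 151 and 152 on the 2T3 low arrays. The groups lay apart with little spread, at 2.56-fold (log2 1.36, SE 0.42, adjusted p = 0.929). In MLO-Y4 its density groups overlapped. The sulphate carrier Slc26a2 read 527, 349 and 627 units on C0 and 67.3, 129 and 277 on 2T3 low arrays (1.86, SE 0.63, adjusted p = 0.929).

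Abcd4, an ABC protein of lysosomes needed for vitamin B12 release, was chosen for its fitted values in both lines. It read 42.4, 62.3 and 92.8 units on C0 and 10.1, 35.04 and 21.0 (below the limit) on 2T3 low arrays. In MLO-Y4 it read 7.92 and 8 units, both below the limit, and 33.8 on the low arrays, against 30.8 (below it), 50.5 and 44.1 on the dense ones. The groups did not overlap in 2T3, and with values below the limit they cannot be ordered in MLO-Y4. The fitted differences were 1.68 (SE 0.64, adjusted p = 0.929) in 2T3 and 1.67 (SE 0.64, adjusted p = 1.00) in MLO-Y4, the latter with 3 of 6 values below the limit. Slc1a6 was lower on every C0 array than on any 2T3 low array (-1.99, SE 0.77, adjusted p = 0.929) and was not measured in MLO-Y4 at either density.

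The cationic amino acid carrier Slc7a2 was measured on all 3 C0 arrays and on 1 array of the other 9. It read 41.3, 15.2 and 10.4 units on C0 arrays and lay below the limit on all 3 low arrays of 2T3. In MLO-Y4 it read 21.0, 11.3 and 23.5 units at low density, of which only number 3 was above the limit, and lay below it on all 3 dense arrays. With most values below the limit, the MLO-Y4 groups cannot be ordered. The fitted difference between the density effects was -2.87 (SE 0.70, unadjusted p = 0.00215, adjusted p = 1.00, limma). Slc1a5 showed a density difference of 1.28 in 2T3 and -0.63 in MLO-Y4 (difference -1.91, SE 0.67, adjusted p = 1.00), and Slc16a1 one of -1.20 and 0.68 (difference 1.88, SE 0.68, adjusted p = 1.00).

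Genes that work with these transporters but fall outside the symbol rule were read from lists, chosen with earlier results of these data known. Their counts beside the shares of all spots are therefore no independent test. Of 10 genes of iron, copper and zinc handling, 9 of them above the limit on at least 1 array, 4 were higher in MLO-Y4 and 0 lower, where 5.83% of all spots were higher and 3.48% lower: the metallothionein Mt1 (log2 2.21, adjusted p = 0.000982), the copper oxidase ceruloplasmin Cp (3.11, adjusted p = 0.00988), the copper chaperone Atox1 (1.56, adjusted p = 0.0200) and ferritin heavy chain Fth1 (1.77, adjusted p = 0.0438). The list median was 0.93, against -0.032 for all spots. Not all rose: the fitted differences of Tfr2, Ccs and Heph were -1.76, -0.69 and -0.15, none of them called, and Heph was measured on no array. The other lists had at most 1 called gene each. Of 7 pump regulators and carrier partners, 1 was higher, the kinase Sgk1 (2.19, adjusted p = 0.00633). Of 6 water channels, 1 was lower, Aqp1 (-2.43, adjusted p = 0.00508). Of 2 peptide transporter genes of the ABC family without an Abc symbol, Tap1 was higher (1.66, adjusted p = 0.0174). None of 5 phosphate and pyrophosphate genes, 7 other P-type pumps or 1 Slco carrier was called, the phosphatase Alpl being at 2.08 (adjusted p = 0.111) beside the higher Slc20a1.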

How the data were processed

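Each of the 12 arrays gave 5030 linear spot intensities, deposited as whole numbers that run below 0, so the authors had subtracted a background. The sources used here do not name the image software, the background method or a normalization. Genes were named from the platform annotation, 4633 spots having 1 symbol, 5 several and 392 none here. Symbols were updated by Entrez identifier for 4624.

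Intensities were quantile normalized, floored at the 25th percentile (6.08 units) and log2 transformed. limma 3.58.1 in R 4.3.3 fitted 4 group means with 8 residual degrees of freedom, and p-values were adjusted over all spots. Equal medians shifted the spots measured on all arrays by 0.79 (log2) towards MLO-Y4, quantile normalization by 0.04. The fit was tested on simulated data. The array numbers were checked by the correlation of same-numbered deviations from group means. It was 0.276 to 0.625 among 2T3 C0, MLO-Y4 low and MLO-Y4 high, and -0.111 to 0.155 between 2T3 low and these. The block over 3 groups was therefore added after seeing the data. Named genes were those called, the 2 of smallest p between the lines in each class and a set list of common transporters, besides those said to be chosen later. Alternatives covered scaling, floor, offset, dim-spot filter, blocks, array weights, a variance trend and arrays left out. The members and lists were chosen with earlier results of these data known. The number of arrays limits the precision.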

Additional observations from a re-analysis of the deposited data

How the results depend on the processing

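Across both densities the count of 6 became 11 with array weights (15.2% of all spots) and 13, or 12.6%, with the replicate block over 3 groups (2T3 low unblocked, 14.2% of all spots), and ranged from 3, without 2T3 C0 replicate 3, to 8 in fits leaving out 1 array. The replicate block over all 12 arrays gave 9, or 8.74% (11.6% of all spots), equal medians 7 (10.1%), detected-spot scaling 8 (10.9%) and the 40th-percentile floor 4 (8.23%). At low density the count of 1 became 2 with detected-spot scaling, 3 with equal medians, with the replicate block, without the MLO-Y4 arrays numbered 1 and without all 4 arrays numbered 1, 4 with the higher floor and with log2(value + 16), 7 with the 3-group block and 9 with array weights, and ranged from 1 to 5 (5 without 2T3 C0 replicate 1). In dense culture the count of 1 became 0 with a variance trend, 2 with detected-spot scaling, log2(value + 16) and the replicate block, 3 without the arrays numbered 1, 4 with the 3-group block and 6 with array weights, and ranged from 0 to 2. Abcc1 was not among the members called with detected-spot scaling, without the arrays numbered 1 or with array weights. The 2 called with detected-spot scaling were both lower in MLO-Y4. The share of all spots called was above the members' share in these settings, except at low density with array weights (8.03% against 8.74%) or without 2T3 C0 replicate 1 (4.19% against 4.85%), and in dense culture without the arrays numbered 1 (2.6% against 2.91%). The density comparisons and their difference gave 0 in every setting run. No named difference that was called reversed its sign. The causes were not tested. Signal near the detection limit bounds the differences of Slc12a7, Slc30a4, Slc6a3 and Slc1a6.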
